A study of Mus musculus with 8 samples.

Results

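The 33 genes described here encode the subunits of mouse Mediator, including its kinase module and Med23, the subunit that was deleted. They were chosen by gene symbol, with earlier results of these data known, and all 33 were found among the 23699 annotated loci listed for each library. Of these, 32 reached the minimum for testing, an FPKM (mapped fragments per kilobase of transcript, scaled to library size) of at least 1 in at least 2 libraries. The 1 that did not was Med12l, a paralogue of Med12, which lay between 0.418 and 0.717 FPKM.

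Polyadenylated RNA was sequenced from livers of male C57/BL6 mice aged 8 weeks, in 4 groups of 2 mice. Control mice and mice with a liver-specific knockout of Med23 (LMKO) were studied after 24 h without food (fasted) or after 24 h without food followed by 24 h of feeding (re-fed). All mice had therefore been fasted, and no group was fed throughout. The allele and any Cre transgene of the controls, the driver of the deletion and the exons it removes are not stated in the sources used here. The question was whether Mediator genes differed between LMKO and control livers in either feeding state, and whether other subunits stood higher where Med23 was lower.

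Mediator carries signals from transcription factors bound at enhancers to RNA polymerase II at the promoter. Its head and middle modules contact the polymerase, Med14 is the scaffold that joins the modules, and the tail, to which Med23 belongs, is the main docking surface for transcription factors. A separable kinase module, built from Cdk8 or Cdk19 with cyclin C (Ccnc), Med12 or Med12l and Med13 or Med13l, binds the rest of the complex reversibly and competes with polymerase for it. In liver, Med1 is known as the contact of nuclear receptors such as the PPARs, Med15 as a partner of the sterol regulator SREBP and Med23 as a partner of the insulin-regulated factor Foxo1.

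The summed FPKM of a library was 453652 to 597650, and FPKM gives no fragment count, so the depth behind each value is unknown. A relative depth of 0.953 to 1.11 against the first fasted control was read from recurring ratios among low values, at which 10.2% to 12.5% of low loci lay. Rn45s, a ribosomal RNA precursor, ranged from 185 to 3448 FPKM. Each locus's deviation from its mean over the libraries was correlated with transcript length at 0.240 to 0.299 in the 4 fasted libraries, at -0.372 to -0.328 in 3 re-fed libraries and at -0.018 in re-fed control replicate 1. The fasted and re-fed files also carried different name prefixes. If the prefix marks a batch, it cannot be told apart from feeding. Of the 6 hepatocyte markers, 5 were measured (summed level 11020 to 15791 FPKM), whereas the files list 0 for albumin (Alb) in each of the 8 libraries.

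Med23 was lower in LMKO livers but not absent from them. Its FPKM (mm9, chromosome 10, 24589792 to 24633335) was 2.86 and 2.93 in fasted control, 2.35 and 2.18 in fasted LMKO, 2.86 and 2.33 in re-fed control and 1.61 and 1.74 in re-fed LMKO livers. Both LMKO libraries lay below both control libraries in each feeding state. The LMKO mean was 78.1% of the control mean in the fasted state (2.26 ± 0.122 against 2.90 ± 0.0470, SD, n = 2) and 64.7% in the re-fed state (1.68 ± 0.0940 against 2.60 ± 0.379, SD, n = 2). The log2 fold change of log2(FPKM + 1), a scale that understates the change of low genes, was -0.26 (SE 0.12) in the fasted state, -0.42 (SE 0.12) in the re-fed state and -0.34 (SE 0.08) over both. None of these passed limma's test with Benjamini-Hochberg adjustment over the 10865 loci (adjusted p = 0.438, 0.315 and 0.173). By unadjusted limma p over both states (0.00486), Med23 ranked 303 of all loci tested. It was the member with the smallest p in that comparison, as it was in the re-fed state. An FPKM covers the whole transcript, so exons outside the deletion, and transcripts of any liver cells that keep the gene, would count toward it, and their part was not tested. In bulk liver, fewer cells of a type and less RNA per cell cannot be told apart.

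Measured against the rest of the complex, Med23 separated the genotypes in the same way. Its ratio to the geometric mean of the other 32 Mediator genes was 0.657 and 0.686 in fasted control, 0.480 and 0.489 in fasted LMKO, 0.601 and 0.490 in re-fed control and 0.328 and 0.340 in re-fed LMKO livers. The groups did not overlap within a feeding state, although re-fed control replicate 2 stood close to the fasted LMKO libraries. Among the 33 genes, Med23 ranked 24 to 26 by FPKM in control livers and 27 or 28 in LMKO livers. This ratio depends on the other subunits as well as on Med23, and they are described next.

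None of the 4 other tail subunits passed the test between genotypes, and 1 of them, Med24, had a higher value in LMKO livers over both states. Med24, which contacts Med23 directly in the tail, had an FPKM of 3.43 and 3.35 in fasted control, 3.89 and 3.15 in fasted LMKO, 5.07 and 5.12 in re-fed control and 5.73 and 5.16 in re-fed LMKO livers. Its groups overlapped in the fasted state and were apart in the re-fed state, with a log2 fold change over both states of 0.06 (95% confidence interval -0.14 to 0.26). Med16, the third member of the Med16-Med23-Med24 contact, had an FPKM of 5.86 and 5.17 in fasted control, 6.89 and 5.77 in fasted LMKO, 6.72 and 5.89 in re-fed control and 4.82 and 5.51 in re-fed LMKO livers. Its log2 fold change over both states was -0.04 (-0.26 to 0.19), and in the re-fed state both LMKO libraries lay below both controls. Med15, the SREBP partner, had an FPKM of 10.9 and 10.6 in fasted control, 12.2 and 9.18 in fasted LMKO, 7.97 and 7.44 in re-fed control and 6.81 and 8.15 in re-fed LMKO livers, with a log2 fold change of -0.03 (-0.29 to 0.23). Its fasted LMKO libraries lay one above and one below both controls. Med25, the docking subunit for several activators including retinoid and stress factors, had an FPKM of 11.7 and 11.2 in fasted control, 13.4 and 10.6 in fasted LMKO, 14.5 and 10.6 in re-fed control and 10.98 and 11.1 in re-fed LMKO livers, with a log2 fold change of -0.05 (-0.34 to 0.24). The share of Med23 in the summed FPKM of the 5 tail genes was 8.25% and 8.81% in fasted control, 6.06% and 7.04% in fasted LMKO, 7.71% and 7.42% in re-fed control and 5.38% and 5.51% in re-fed LMKO livers. The share was thus lower in both LMKO libraries of each state, as Med23 itself was. The sum of the tail genes overlapped between genotypes when fasted (34.7 and 33.3 FPKM in control, 38.8 and 30.9 FPKM in LMKO) and when re-fed (37.1 and 31.4 FPKM in control, 29.9 and 31.7 FPKM in LMKO).

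**Figure D1:**
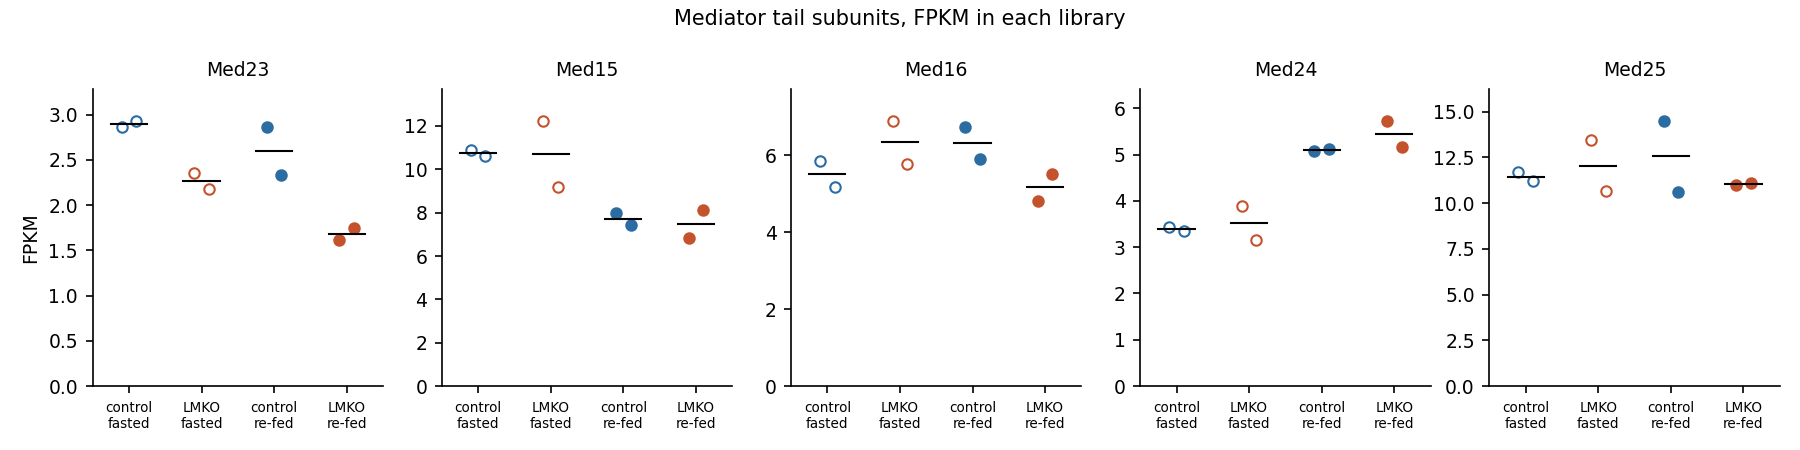
FPKM of the 5 Mediator tail genes in each of the 8 libraries (points, 1 per mouse; open when fasted, filled when re-fed; blue control, orange LMKO; line, mean of 2; each panel has its own axis from 0). Med23 lay lower in both LMKO libraries of each feeding state, from 2.18 to 2.35 FPKM against 2.86 to 2.93 FPKM when fasted, while Med15 and Med25 of LMKO overlapped the fasted controls and Med24 was higher in all 4 re-fed libraries.

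No Mediator gene passed the test between LMKO and control livers, in either feeding state or over both. Among all loci tested, 0.166% passed in the fasted state, 0.101% in the re-fed state and 0.313% over both. Without adjustment, 2 members had a limma p under 0.05 and a higher value in fasted LMKO livers (8.79% of all loci did) and 0 a lower one (3.56% of all loci). In the re-fed state these counts were 5 higher (7.11%) and 1 lower (4.57%), and over both states 8 higher (10.8%) and 2 lower (4.34%). The 8 of 32 higher over both states are a larger share than among all loci, and the difference between the shares was not tested. Over both states, 20 of the other 31 members had a higher value in LMKO, as did 6557 of the 10865 loci tested. The median log2 fold change of these 31 members was 0.11 beside 0.04 over all loci tested. With each library's trend with transcript length removed, as described further on, that median was 0.0395 beside -4e-04 over all loci. Of the 31, 18 were then higher, and the share of all loci that were higher was not computed.

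The 8 genes with a higher value in LMKO and an unadjusted p under 0.05 over both states lay in the head, in the middle and between head and tail. In the head they were Med11, a small subunit that pairs with Med22, and Med6, which lies at the border with the middle. Med11 had an FPKM of 5.37 and 5.37 in fasted control, 6.59 and 6.61 in fasted LMKO, 6.39 and 7.59 in re-fed control and 8.29 and 9.54 in re-fed LMKO livers. Both LMKO libraries lay above both controls in each state (log2 fold change 0.28, SE 0.09, limma adjusted p = 0.225). Med6 had an FPKM of 7.305 and 7.05 in fasted control, 8.55 and 7.697 in fasted LMKO, 8.89 and 10.1 in re-fed control and 11.1 and 11.9 in re-fed LMKO livers, again without overlap (0.21, SE 0.08, adjusted p = 0.299). In the middle module they were Med4, Med7, Med21 and Med31. Med4, which forms the middle with its partner Med9, had an FPKM of 6.16 and 5.53 in fasted control, 7.51 and 7.46 in fasted LMKO, 5.68 and 6.92 in re-fed control and 7.77 and 7.36 in re-fed LMKO livers (log2 fold change 0.27, SE 0.09, limma adjusted p = 0.239). Its values did not overlap between genotypes in either state. Med21, the partner of Med7 in the hinge of the middle module, had an FPKM of 9.62 and 8.97 in fasted control, 11.7 and 11.1 in fasted LMKO, 16.2 and 20.4 in re-fed control and 21.3 and 29.8 in re-fed LMKO livers (0.36, SE 0.13, adjusted p = 0.268). Med7 had an FPKM of 3.83 and 3.93 in fasted control, 4.34 and 4.49 in fasted LMKO, 5.23 and 6.39 in re-fed control and 6.998 and 7.87 in re-fed LMKO livers (0.23, SE 0.09, adjusted p = 0.285). Both LMKO libraries of each state exceeded the controls for this pair of genes. Med31, a small conserved subunit that binds Med7, had an FPKM of 1.705 and 1.18 in fasted control, 1.79 and 2.06 in fasted LMKO, 2.19 and 1.82 in re-fed control and 2.67 and 2.596 in re-fed LMKO livers (0.27, SE 0.10, adjusted p = 0.279), also without overlap. Between head and tail they were Med28 and Med29. Med28 had an FPKM of 2.49 and 2.405 in fasted control, 3.07 and 2.54 in fasted LMKO, 3.14 and 3.98 in re-fed control and 4.495 and 5.26 in re-fed LMKO livers (0.25, SE 0.10, adjusted p = 0.305). Its groups did not overlap in either state. Med29 had an FPKM of 4.83 and 4.91 in fasted control, 5.88 and 4.71 in fasted LMKO, 7.06 and 7.11 in re-fed control and 8.91 and 9.92 in re-fed LMKO livers (0.23, SE 0.09, adjusted p = 0.296), and its fasted LMKO libraries lay on both sides of the controls.

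Of the 8 genes, 7 had transcripts of up to 1500 bases (Med7 had 2390), and the genotype difference of the members followed transcript length. Across the 32 tested members, log2 fold change over both states and log2 transcript length were correlated at r = -0.676 (rho = -0.684), beside r = -0.137 (rho = -0.296) over the 10749 loci tested that had a length. The genes share the same 8 libraries, so this is a description of these libraries. When each library's trend with length was removed, 0 members had a higher value with an unadjusted p under 0.05 over both states (5.83% of all loci), 2 had a lower one (Med23 and Ccnc, 6.83% of all loci), and 0 passed the adjusted threshold. Med23 was then nearly as low as before (log2 fold change -0.33, SE 0.06, limma adjusted p = 0.114, rank 139).

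Counts of members whose groups did not overlap were read against the same counts over all loci. In the fasted state 13 members were higher in LMKO without overlap (33.0% of all loci) and 4 were lower (12.8%). In the re-fed state 13 were higher (25.6%) and 7 were lower (19.4%). In both states at once, 9 were higher (10.1%) and 4 lower (3.38%). The 4 lower were Med23, Ccnc, Med13 and Med26, the subunit that recruits elongation factors. On the scale of FPKM + 1, which understates the change of low genes such as Med31 and Med28, the intervals were as follows. Of the other 31 tested members, 31 had a 95% confidence interval that ended below a doubling over both states, and 30 had one that ended below a 1.5-fold difference. The exception to the second count was Med21, whose interval reached 1.59-fold. The median width of an interval to each side was 0.21 on the log2 scale, without adjustment for the number of loci. Differences of 0.36 (Med21) and -0.34 (Med23) did not pass the adjusted threshold. With 2 mice per group, differences larger than that width could therefore also be missed. The sum of the 32 genes other than Med23 was 176.5 and 173.4 FPKM in fasted control, 196.2 and 180.2 FPKM in fasted LMKO, 202.2 and 210.6 FPKM in re-fed control and 219.1 and 239.4 FPKM in re-fed LMKO livers. It was higher in both LMKO libraries of each state, and so was the summed FPKM of all loci (465853 and 468218 against 460106 and 453652 when fasted, 597650 and 580797 against 511926 and 552680 when re-fed). As a share of a library's summed FPKM it was 0.0384% and 0.0382% in fasted control, 0.0421% and 0.0385% in fasted LMKO, 0.0395% and 0.0381% in re-fed control and 0.0367% and 0.0412% in re-fed LMKO livers, and the genotypes overlapped when re-fed.

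**Figure D2:**
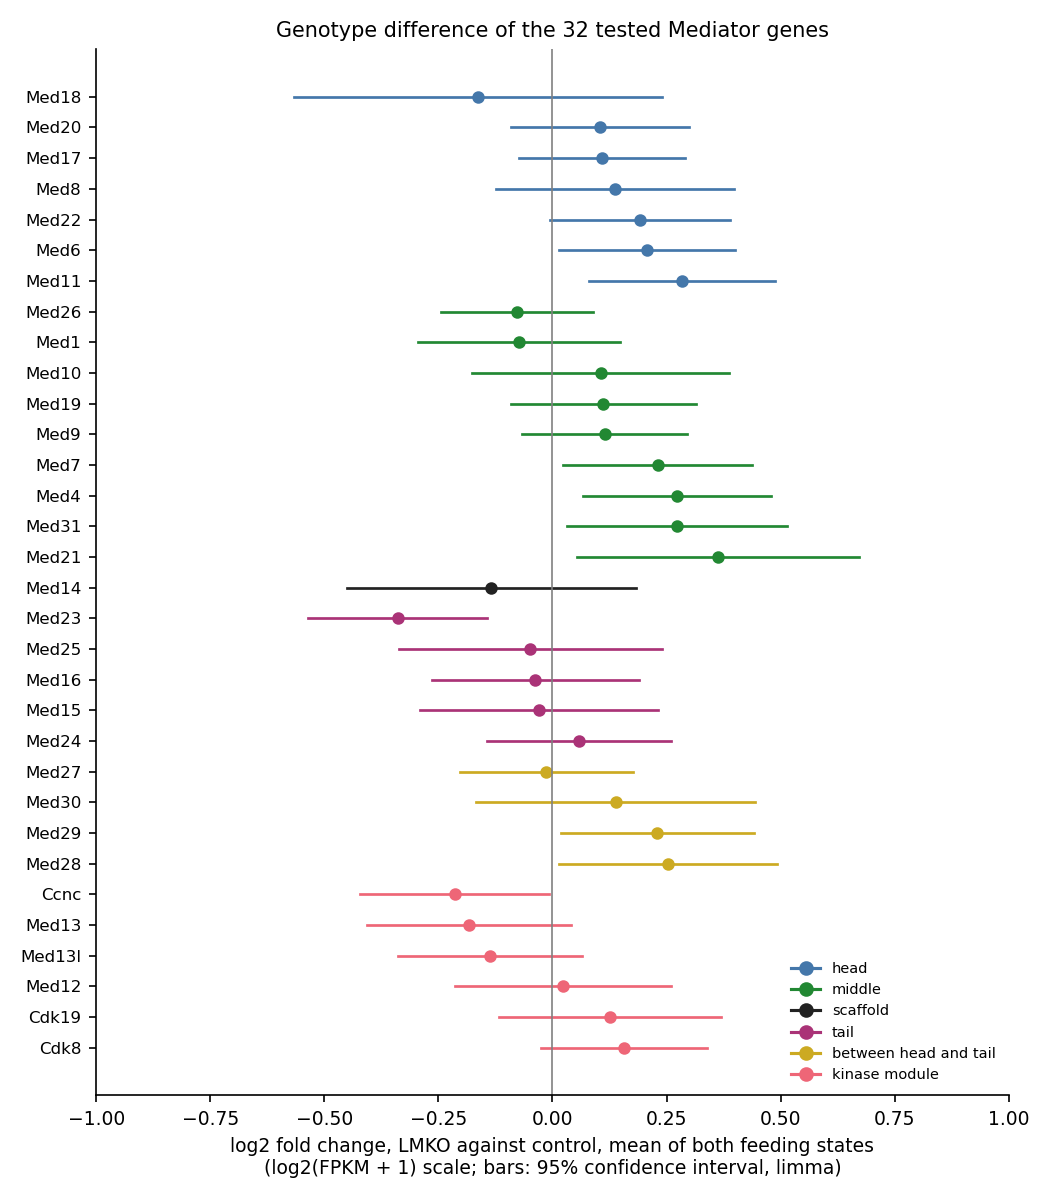
Log2 fold change of LMKO against control livers, as the mean of both feeding states, for the 32 tested Mediator genes by module (points), with 95% confidence intervals from limma (bars; 8 libraries). Med23 had the lowest value at -0.34 and Med21 the highest at 0.36, and no gene passed the adjusted threshold.

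The kinase module held no gene that passed between genotypes, and the paralogues kept their order. Cdk8, the main kinase, had an FPKM of 11.6 and 12.1 in fasted control, 12.97 and 13.6 in fasted LMKO, 12.3 and 12.5 in re-fed control and 13.1 and 14.9 in re-fed LMKO livers. Both LMKO libraries lay above both controls in each state (log2 fold change 0.16, 95% confidence interval -0.02 to 0.34). Cdk19, its paralogue, had an FPKM of 1.64 and 1.34 in fasted control, 2.002 and 2.02 in fasted LMKO, 1.05 and 1.21 in re-fed control and 1.35 and 0.869 in re-fed LMKO livers, higher without overlap in fasted LMKO livers and overlapping in the re-fed state. Ccnc, the cyclin that both kinases need, had an FPKM of 5.95 and 6.98 in fasted control, 5.79 and 4.9005 in fasted LMKO, 7.99 and 8.12 in re-fed control and 7.06 and 6.77 in re-fed LMKO livers. It was lower in both LMKO libraries of each state (-0.21, SE 0.09, limma adjusted p = 0.316). Med13, which links the kinase module to the rest of Mediator, had an FPKM of 5.56 and 5.997 in fasted control, 5.44 and 5.35 in fasted LMKO, 4.43 and 3.34 in re-fed control and 3.08 and 2.91 in re-fed LMKO livers (-0.18, -0.41 to 0.04). Its paralogue Med13l had an FPKM of 2.37 and 2.76 in fasted control, 2.68 and 2.35 in fasted LMKO, 1.497 and 1.26 in re-fed control and 0.988 and 0.990 in re-fed LMKO livers (-0.14, -0.34 to 0.06). Both lay lower in the 2 re-fed LMKO libraries than in the re-fed controls, and Med13l overlapped when fasted. Med12, which activates the kinase, had an FPKM of 4.405 and 5.17 in fasted control, 5.25 and 4.37 in fasted LMKO, 2.48 and 2.35 in re-fed control and 2.82 and 2.23 in re-fed LMKO livers (0.02, -0.21 to 0.26). Med12l had an FPKM of 0.485 and 0.418 in fasted control, 0.717 and 0.566 in fasted LMKO, 0.585 and 0.467 in re-fed control and 0.635 and 0.625 in re-fed LMKO livers, below the minimum for testing, and was higher without overlap in LMKO livers in both states.

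FPKM is per length, so levels within a pair of paralogues can be set side by side, but the paralogues differ in length (Cdk8 2720 and Cdk19 4890 bases, for example) and the trend of FPKM with length differed between fasted and re-fed libraries. Cdk8 made up 87.6% and 90.0% of the Cdk8 and Cdk19 total in fasted control, 86.6% and 87.1% in fasted LMKO, 92.1% and 91.2% in re-fed control and 90.7% and 94.5% in re-fed LMKO livers. Med12 made up 90.1% and 92.5% of its pair in fasted control, 88.0% and 88.5% in fasted LMKO, 80.9% and 83.4% in re-fed control and 81.6% and 78.1% in re-fed LMKO livers. Med13 made up 70.1% and 68.5% of its pair in fasted control, 67.0% and 69.5% in fasted LMKO, 74.7% and 72.7% in re-fed control and 75.7% and 74.6% in re-fed LMKO livers. In each pair the 4 fasted libraries did not overlap with the 4 re-fed ones: the shares of Cdk8 and Med13 were higher after re-feeding and that of Med12 was lower. With the length trend removed, the re-feeding values of Cdk8 and Cdk19 were -0.02 and -0.19 on the log2 scale, beside 0.06 and -0.37 without. For Med13 and Med13l they were then -0.08 and -0.28. Med12l lay below the minimum for testing, and how often other gene pairs separate in this way was not counted. The genotypes did not overlap when fasted for Cdk8 and Med12, whose shares were lower in LMKO.

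**Figure D3:**
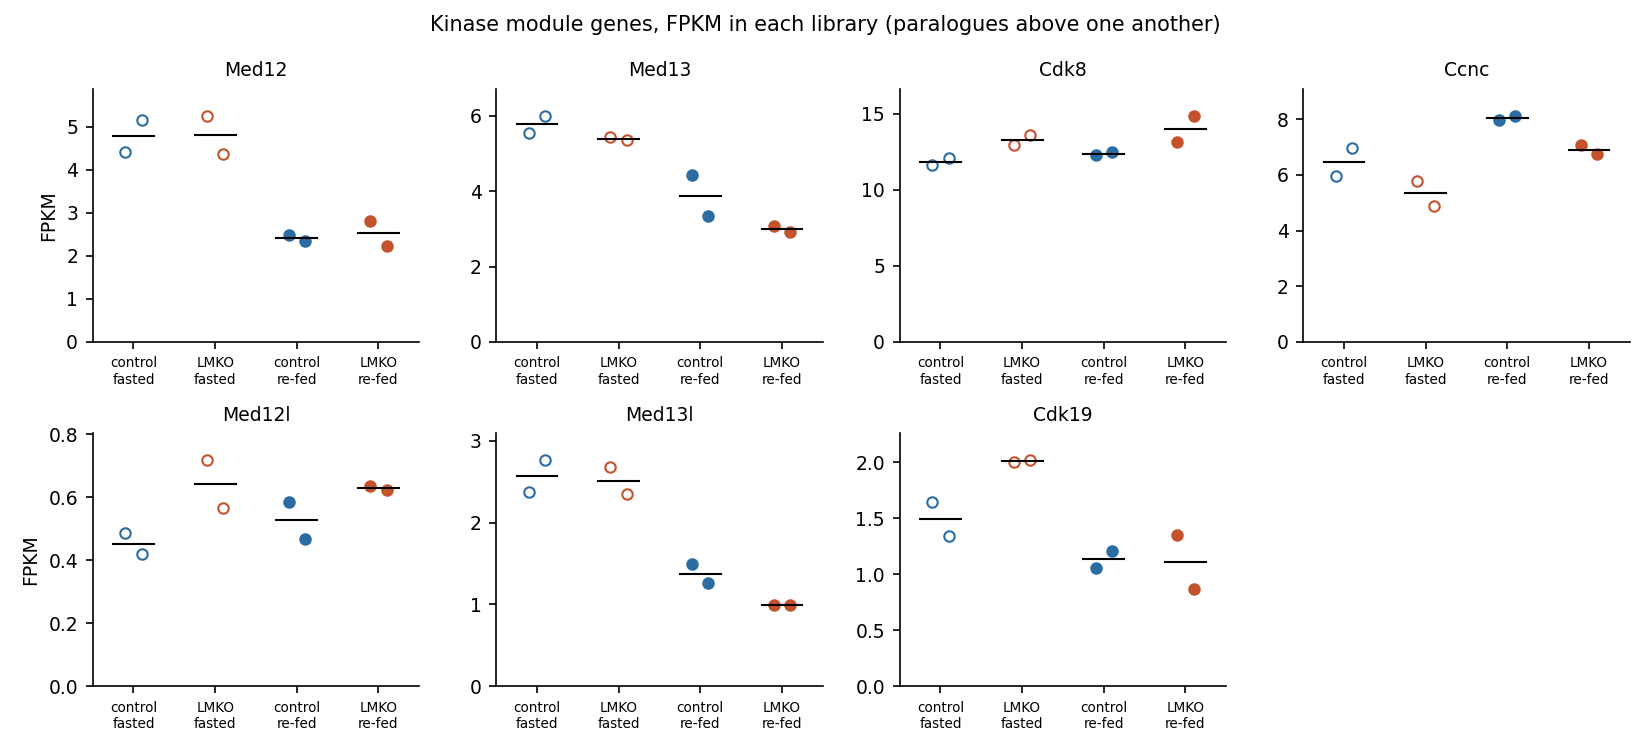
FPKM of the 7 kinase module genes in each of the 8 libraries (points, 1 per mouse; open when fasted, filled when re-fed; blue control, orange LMKO; line, mean of 2; each panel has its own axis from 0), with paralogues in the lower row. Med12, Med13 and Med13l lay lower in all 4 re-fed libraries, with Med12 at 2.23 to 2.82 FPKM against 4.37 to 5.25 FPKM when fasted, while Ccnc was lower in LMKO within each state.

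More Mediator genes differed between feeding states than between genotypes. Over both genotypes, 14 members rose with re-feeding, at an adjusted p under 0.05, and 6 fell. Among all loci tested, 32.4% rose and 20.6% fell, so the members' 14 and 6 of 32 lie near the background. In control livers 7 members rose (22.8% of all loci) and 4 fell (10.5%), and in LMKO livers 12 rose (23.2%) and 5 fell (16.3%). Many calls within a genotype were lost when a library was left out: of the 11 in control livers, 10 were lost in at least 1 of the 8 such fits (Med19 was kept), and of the 17 in LMKO livers 13 were (Med13l, Med19, Med21 and Med29 were kept). The same 11 genes that passed in control livers also passed in LMKO livers, and 29 of 32 values had the same sign in both genotypes. The shares of all loci for both of these counts were not computed. The difference between the responses, tested as an interaction, was passed by 0 members (0.0368% of all loci). At an unadjusted p under 0.05 the interaction gave 0 higher and 0 lower members (3.25% and 6.10% of all loci). The median log2 fold change of the members over both genotypes was 0.19 beside 0.10 over all loci.

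The middle module held the largest rises. Med21 more than any other member was higher after re-feeding, with all 4 re-fed libraries (16.2 to 29.8 FPKM) above all fasted ones (8.97 to 11.7 FPKM), a log2 fold change of 0.99 (SE 0.13, limma adjusted p = 0.00128). Med19, which links Mediator to the transcriptional repressor REST and helps anchor the middle module, had an FPKM of 3.61 and 2.89 in fasted control, 3.84 and 3.69 in fasted LMKO, 6.44 and 6.11 in re-fed control and 6.28 and 6.81 in re-fed LMKO livers. The fasted and re-fed libraries did not overlap (log2 fold change 0.72, SE 0.09, adjusted p = 0.000877), and Med19 passed in both genotypes. Med10, a core subunit of the middle, had an FPKM of 7.505 and 6.96 in fasted control, 7.66 and 6.97 in fasted LMKO, 10.2 and 13.8 in re-fed control and 12.4 and 15.2 in re-fed LMKO livers. It too passed in both genotypes and without overlap (0.73, SE 0.12, adjusted p = 0.00268). Med7 rose by 0.56 (SE 0.09) and Med31 by 0.31 (SE 0.10) on the log2 scale (adjusted p of 0.00238 and of 0.0386, limma). Med1, the nuclear receptor contact, was the exception in this module. Its FPKM was 10.2 and 12.3 in fasted control, 10.8 and 12.2 in fasted LMKO, 8.47 and 7.46 in re-fed control and 6.75 and 6.98 in re-fed LMKO livers. All re-fed libraries lay below all fasted ones (-0.56, SE 0.09, adjusted p = 0.00306). Med4 (0.05), Med9 (0.17) and Med26 (-0.10) did not pass.

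In the head, 4 of 7 genes rose (32.4% of all loci) and 0 fell (20.6%). With each library's length trend removed, as described below, Med6, Med8 and Med20 no longer passed, and Med11 and Med18 fell. Med8, which holds the Med18-Med20 pair on the head and was the gene with the highest mean FPKM of all 33, had an FPKM of 13.98 and 13.4 in fasted control, 13.7 and 12.3 in fasted LMKO, 15.4 and 20.9 in re-fed control and 23.7 and 22.4 in re-fed LMKO livers. It passed over both genotypes (0.58, SE 0.11, adjusted p = 0.00488 in limma) and in LMKO livers (0.78, adjusted p = 0.00945) but not in control livers (0.37, adjusted p = 0.109), and the interaction was not significant (0.42, SE 0.22, adjusted p = 0.594). Med20, which pairs with Med18, had an FPKM of 6.65 and 6.25 in fasted control, 6.75 and 6.39 in fasted LMKO, 8.33 and 7.48 in re-fed control and 8.53 and 9.76 in re-fed LMKO livers (0.34, SE 0.08, adjusted p = 0.0127). Its re-fed libraries all lay above the fasted ones. Med6 rose by 0.41 and Med11 by 0.35 on the log2 scale (adjusted p of 0.00585 and of 0.0131, limma). Med22 had an FPKM of 8.46 and 7.31 in fasted control, 9.76 and 9.89 in fasted LMKO, 10.5 and 9.47 in re-fed control and 10.2 and 11.2 in re-fed LMKO livers and did not pass (0.21, adjusted p = 0.0718). Med17, the central head subunit, ranged from 2.98 to 3.89 FPKM over the libraries, and Med18 from 0.836 to 2.55 FPKM, the highest value being that of fasted control replicate 2. Between head and tail, 3 of 4 genes rose (32.4% of all loci). With the length trend removed, these genes, Med27, Med28 and Med29, no longer passed. Med27 had an FPKM of 3.36 and 3.38 in fasted control, 3.56 and 2.98 in fasted LMKO, 5.17 and 5.08 in re-fed control and 5.3997 and 4.94 in re-fed LMKO livers (0.51, SE 0.08, adjusted p = 0.00238). It passed in both genotypes, as did Med29 (0.60 over both, SE 0.09, adjusted p = 0.00202). In control livers the call of Med29 was lost in 6 of 8 fits that left out a library (limma adjusted p up to 0.108) and that of Med27 in 4 of 8, once for each control library (up to 0.0794). Med28 passed over both (0.51, SE 0.10, adjusted p = 0.00546). Med30 ranged from 4.16 to 7.76 FPKM and did not pass (0.32, adjusted p = 0.0712).

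The tail split in opposite directions. Med24 rose (0.49, SE 0.08, limma adjusted p = 0.00331), with all 4 re-fed libraries above all 4 fasted ones, and Med15 fell (-0.45, SE 0.11, adjusted p = 0.0135). Med16, Med25 and Med23 did not pass, with log2 fold changes of -0.04, 0.00 and -0.20. The scaffold gene Med14 ranged from 1.92 to 3.64 FPKM and did not pass (-0.29, adjusted p = 0.110). In the kinase module, Med12 (-0.74, SE 0.10, adjusted p = 0.00138), Med13l (-0.70, SE 0.08, adjusted p = 0.000932), Med13 (-0.58, SE 0.09, adjusted p = 0.00268) and Cdk19 (-0.37, SE 0.10, adjusted p = 0.0205) fell, and Ccnc rose (0.30, SE 0.09, adjusted p = 0.0240). Cdk8 did not pass (0.06, adjusted p = 0.507). The fall of Med12, Med13 and Med13l passed in each genotype, although that of Med13 in control livers was lost in 7 of 8 fits that left out a library (limma adjusted p up to 0.137; it was kept without re-fed control replicate 1), and that of Cdk19 passed in LMKO livers and over both. Leaving out 1 library ended the call over both genotypes for Cdk19 in 5 of 8 cases, for Ccnc in 5 of 8 and for Med31 in 6 of 8, with limma adjusted p up to 0.0609, 0.0766 and 0.110. Median-ratio scaling also ended the calls of Ccnc and Med31 (limma adjusted p of 0.0625 and of 0.0697), and testing without a filter on low values ended that of Med31 (adjusted p = 0.0703). The omission of 1 library ended the calls of Med11 (adjusted p = 0.0510 in limma) and Med20 (adjusted p = 0.0505), in each case re-fed LMKO replicate 2.

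**Figure D4:**
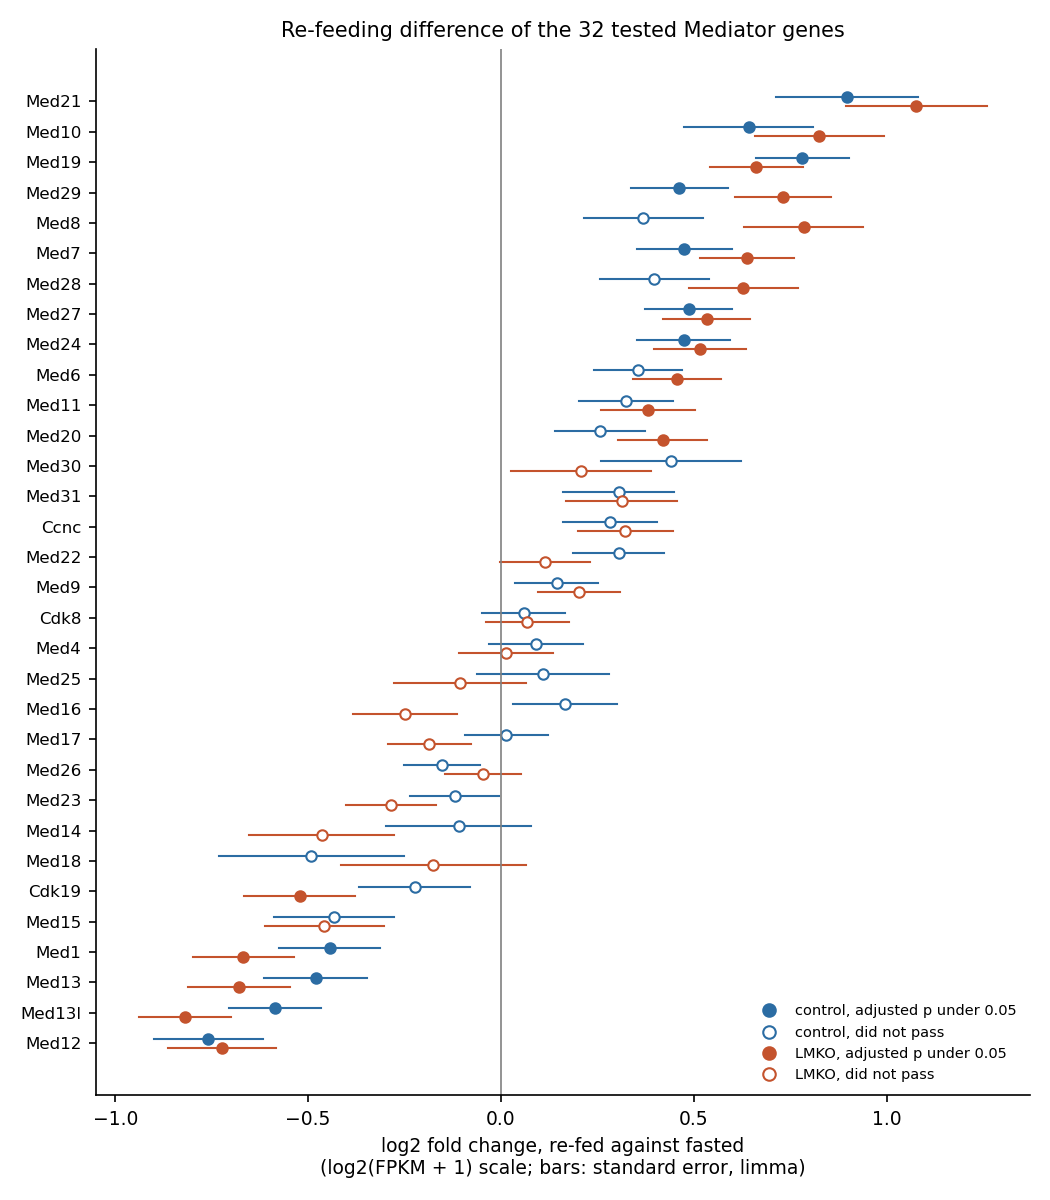
Log2 fold change of re-fed against fasted livers for the 32 tested Mediator genes in control (blue) and LMKO (orange) mice (points, filled where the limma adjusted p was under 0.05; bars, standard error; 2 mice per group). Med12 to Med1 at the foot lay below 0 in both genotypes and Med21, Med10 and Med19 at the top above it, and 29 of 32 genes had the same sign in both.

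Transcript length moved with these values. The log2 fold change over both genotypes was correlated with log2 transcript length at r = -0.815 (rho = -0.801) across the 32 members and at r = -0.370 (rho = -0.464) across the 10749 loci with a length. The 11 members of up to 1500 bases had a median of 0.51, beside 0.49 over all loci of that length, and the 10 of 1500 to 3000 bases had 0.19 beside 0.17. The 7 of 3000 to 5000 bases had -0.20 beside -0.06, and the 4 longer ones (Med1, Med12, Med13 and Med13l) had -0.64 beside -0.32. The short members thus lay close to other short transcripts. When each library's trend with length was removed, 4 members rose (23.0% of all loci) and 7 fell (22.6%). The members' median was then -0.07, beside 0.0043 over all loci. Those that rose were Med19 (0.52, SE 0.07, limma adjusted p = 0.00218), Med24 (0.49, SE 0.08, adjusted p = 0.00377), Med7 (0.42, SE 0.08) and Med21 (0.36, SE 0.11). Those that fell were Med18 (-0.62, SE 0.17), Med15 (-0.44, SE 0.09), Med12 (-0.41, SE 0.10), Med4 (-0.32, SE 0.07), Med1 (-0.30, SE 0.08), Med11 (-0.29, SE 0.07) and Med13l (-0.28, SE 0.08). Med11 changed direction. Of the 20 genes that passed over both genotypes before, 11 no longer did: Med6, Med8, Med10, Med13, Med20, Med27, Med28, Med29, Med31, Cdk19 and Ccnc, with limma adjusted p from 0.0515 (Med29) to 0.401 (Med31). The genes that passed in each genotype and over both, and again over both with the length trend removed, were 7: Med7, Med19, Med21 and Med24, which rose, and Med1, Med12 and Med13l, which fell. The share of all loci that met these conditions together was not computed. Each condition alone was met by many loci: 33.2% in control, 39.5% in LMKO, 53.1% over both and 45.5% over both with the trend removed. With the trend removed, 2 of the 7, Med19 and Med24, passed in each genotype by itself. In control livers Med12 also passed, and Med1, Med7, Med13l and Med21 did not (limma adjusted p 0.0941 to 0.143). In LMKO livers Med7 also passed, and Med1, Med12, Med13l and Med21 did not (0.0967 to 0.168). As deposited, the call of Med1 in control livers was lost in 7 of 8 fits that left out a library (adjusted p up to 0.192; it was kept without fasted control replicate 1). Over these libraries the trend with length and the feeding state cannot be told apart.

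**Figure D5:**
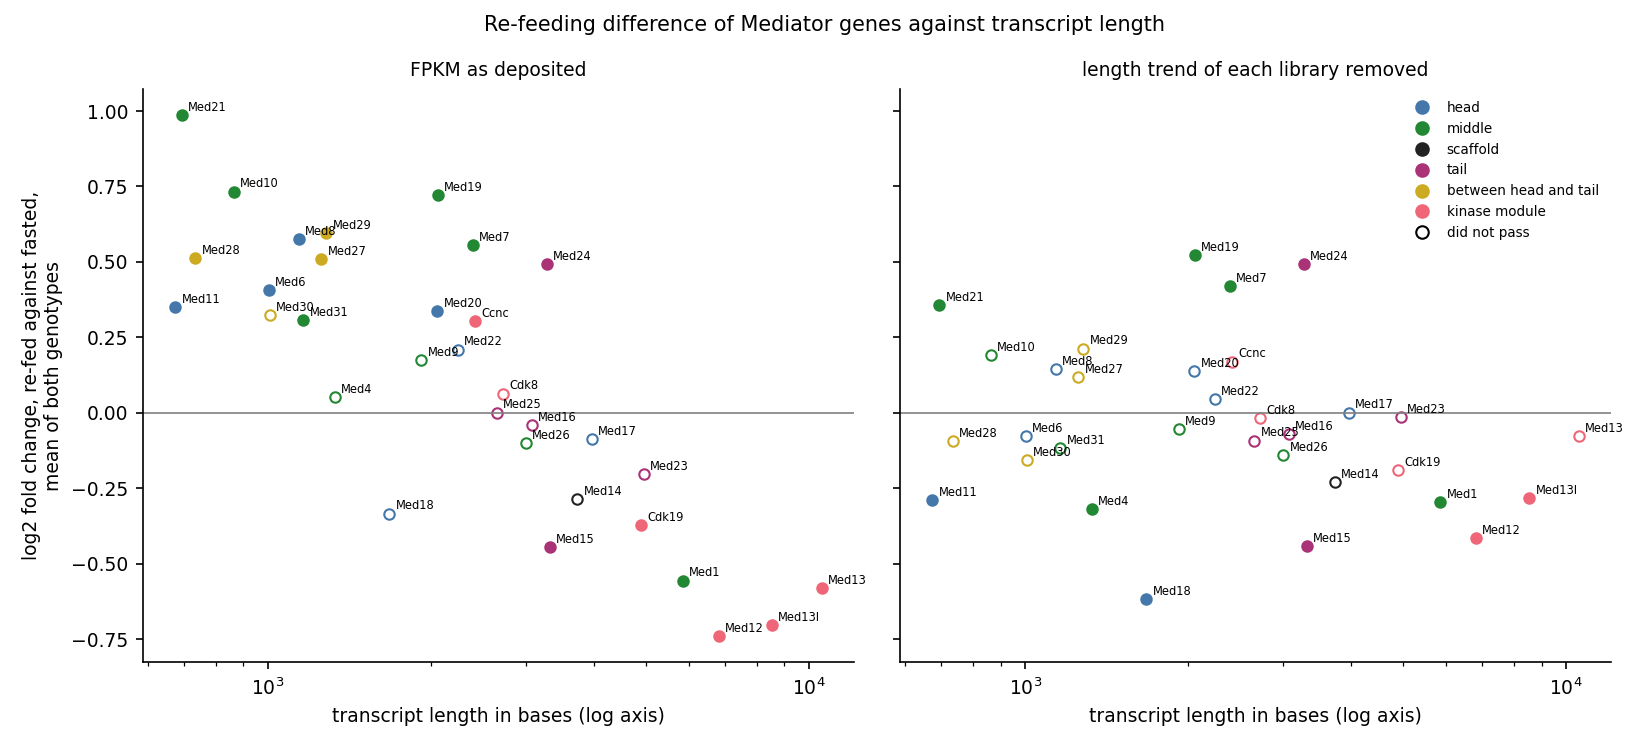
Log2 fold change of re-fed against fasted livers, as the mean of both genotypes, against transcript length on a log axis for the 32 tested Mediator genes (points, filled where the limma adjusted p was under 0.05; colours, modules). With FPKM as deposited (left) the values ran from 0.99 for Med21 to -0.74 for Med12 and followed length, and with each library's length trend removed (right) Med19, Med24, Med7 and Med21 lay highest.

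The promoter sequences of genes among these 7 are given to show what lies upstream of them. RefSeq windows of the 250 bases before the start (build GRCm38.p6) were found for 28 of the 33 members, and the 5 others, among them Med23 and Med24, had none. Of the 7 genes, 5 had a single window. In Med1 and Med13l it lay inside the annotated gene, so the windows of Med12, Med19 and Med21 are printed, cut to the stretch outside annotated exons. Capitals mark matches, on either strand, to the letters searched for ETS factors, Sp1, NF-Y, the TATA box, the E-box and the cyclic AMP response element (CRE), which are spelled out after the sequences.
Med12, chrX:101273841-101274029, plus strand: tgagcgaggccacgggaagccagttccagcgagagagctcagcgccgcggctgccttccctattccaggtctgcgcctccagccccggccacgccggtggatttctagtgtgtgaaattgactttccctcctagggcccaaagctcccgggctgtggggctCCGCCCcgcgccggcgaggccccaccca
Med19, chr2:84678175-84678401, plus strand: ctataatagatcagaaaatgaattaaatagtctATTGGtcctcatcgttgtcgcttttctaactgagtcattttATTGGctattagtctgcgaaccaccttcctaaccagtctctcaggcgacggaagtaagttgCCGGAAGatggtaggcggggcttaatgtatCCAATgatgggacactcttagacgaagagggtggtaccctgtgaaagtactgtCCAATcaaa
Med21, chr6:146642329-146642546, plus strand: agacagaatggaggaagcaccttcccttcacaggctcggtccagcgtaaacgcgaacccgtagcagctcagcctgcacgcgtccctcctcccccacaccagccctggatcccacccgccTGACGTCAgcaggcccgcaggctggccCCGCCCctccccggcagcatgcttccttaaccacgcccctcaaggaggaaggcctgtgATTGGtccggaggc

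The Med12 stretch held 1 Sp1 match, the Med19 stretch held 4 NF-Y matches and 1 ETS match, and the Med21 stretch held 1 match each to CRE, Sp1 and NF-Y. Over the 32 full windows of the 28 members (4 members had 2), the ETS letters CCGGAAG were present in 6 (18.8%), beside 6.91% of the 32851 windows in the table. For Sp1, whose letters are GGGCGG, the count was 20 (62.5% against 32.7%). For NF-Y, read as CCAAT, it was 12 (37.5% against 33.9%), and for the TATA box, read as TATAAA, it was 3 (9.38% against 12.4%). The E-box CACGTG was present in 2 windows (6.25% against 6.02%). The CRE letters TGACGTCA were present in 1, Med21 (3.12% against 1.55%). No one of these strings contains another. The members' windows had a median GC content of 56.0%, beside 52.4% over all windows, which bears on the GC-rich letters. These are matches of letters and do not show that a factor is bound.

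The partners of Mediator at the promoter were described from lists of known members. Between genotypes 0 genes of any of the 7 lists passed over both states, although RNA polymerase II subunits had a median log2 fold change of 0.23 over their 12 genes, beside 0.04 over all loci. With the length trend removed that median was 0.0693 (median length 861 bases), beside -4e-04 over all loci. The smallest p values belonged to Ppargc1a, the fasting coactivator PGC-1alpha (-0.54, limma adjusted p = 0.0567), and Polr2i (0.71, adjusted p = 0.102). In the other lists they were Taf13 (0.33, adjusted p = 0.186), Gtf2f1 (0.31, adjusted p = 0.215), Supt4h1 (0.30, adjusted p = 0.232), Foxo1 (-0.32, adjusted p = 0.346) and the cohesin loader Nipbl (-0.18, adjusted p = 0.433).

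With re-feeding, over both genotypes, 10 of 12 RNA polymerase II subunits rose and 0 fell, with a median of 0.72 (32.4% of all loci rose). They were Polr2c, Polr2d, Polr2e, Polr2f, Polr2g, Polr2h, Polr2i, Polr2j, Polr2k and Polr2l, by 0.34 (Polr2c) to 1.43 (Polr2l). The 2 largest subunits, Polr2a and Polr2b, did not pass. Of the 18 general transcription factor genes, 12 rose (32.4% of all loci) and 0 fell (20.6%), led by Gtf2f1 (1.04) and Gtf2h5 (0.75), with Ccnh, Ercc2, Gtf2a2, Gtf2e1, Gtf2e2, Gtf2f2, Gtf2h2, Gtf2h3, Gtf2h4 and Mnat1. Of the 13 TFIID subunit genes, 5 rose (Taf9, Taf10, Taf11, Taf12 and Taf13, by 0.30 to 0.81) and 4 fell (Taf1, Taf3, Taf4a and Taf8, from -0.53 to -0.23). The shares over all loci were 32.4% and 20.6%, and the differences between the shares were not tested for any list. Of 20 elongation factor symbols 16 were found and 14 tested, of which Hexim1 (1.04), Ell3 (0.89) and Larp7 (0.46) rose (32.4% of all loci), and Aff1, Aff4, Ccnt1, Ell and Ell2 fell (20.6%), Aff4 the most (-1.10). Hexim1 and Larp7 restrain the elongation kinase P-TEFb, and Aff4 and Ell2 are parts of the super elongation complex.

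Of the 7 genes of cohesin, which joins enhancers to promoters together with Mediator, 5 fell with re-feeding (20.6% of all loci) and 0 rose (32.4%). Those that fell were Stag2 (-0.99), Nipbl (-0.93), Rad21 (-0.61), Stag1 and Mau2. Of the 12 other coactivator genes, 11 fell and 1 rose, with a median of -0.65 (20.6% of all loci fell). Ppargc1a fell the most (-1.14), and those that fell included Ppargc1b (-1.12), Ncoa2 (-0.81), Crebbp (-0.79), Ep300 (-0.78), Ncoa6, Carm1, Ncoa1, Ncoa3 and Kat2b. The acetyltransferase gene Kat2a rose (0.53). Among 6 partners of Med23, Foxo1 fell (-0.74) and Ube2a, a ubiquitin-conjugating enzyme for histone H2B, rose (0.43). Among all loci 20.6% fell and 32.4% rose. With the length trend removed 0 of the 6 rose, so the rise of Ube2a was then lost. The lists differ in length, from a median of 861 bases for the polymerase subunits to 5982 bases for the coactivators. With the length trend removed the counts of rises and falls were 4 and 0 for polymerase subunits, 8 and 2 for general transcription factors, 4 and 3 for TFIID subunits and 3 and 5 for elongation factors. They were 0 and 3 for cohesin, 1 and 8 for coactivators and 0 and 2 for the partners of Med23. Among all loci, 23.0% rose and 22.6% fell with that trend removed.

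Markers of hepatocytes and of other liver cells also moved with feeding. Of the 5 hepatocyte markers tested, 3 fell (20.6% of all loci) and 1 rose (32.4%) over both genotypes. The summed FPKM of 7 sinusoidal endothelial markers was 69.1 and 63.3 in fasted control, 88.9 and 87.9 in fasted LMKO, 46.6 and 49.7 in re-fed control and 51.8 and 38.9 in re-fed LMKO livers, and 6 of the 7 fell with re-feeding over both genotypes (20.6% of all loci). The summed FPKM of 6 Kupffer cell and macrophage markers was 55.5 and 72.0, 60.4 and 77.4, 45.1 and 47.6, and 22.7 and 34.4 in the same order, and 4 of the 6 fell (20.6% of all loci). Summed cholangiocyte markers lay at 8.12 to 12.03 FPKM in fasted and 24.2 to 30.1 FPKM in re-fed livers, and 1 of the 3 tested, Spp1, rose (32.4% of all loci). Between genotypes, over both feeding states, 1 of the 3 cholangiocyte markers passed and was lower in LMKO livers (limma adjusted p = 0.0350). Among all loci tested, 0.313% passed in that comparison, and 0 of the 7 endothelial markers did. All 7 endothelial markers had a higher value in fasted LMKO livers (7042 of the 10865 loci did). In re-fed LMKO livers 6 of the 7 had a lower value (5265 of the 10865 loci). Summed stellate cell markers lay at 11.8 to 23.2 FPKM. Of these 7 markers, 1 rose (32.4% of all loci) and 2 fell (20.6%) with re-feeding over both genotypes. Summed T and NK cell markers lay at or below 1.54 FPKM and B cell markers at or below 1.78 FPKM. Counts for the marker lists with the length trend removed were not computed. The part of these cells in the Mediator values was not tested.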

How the data were processed

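Polyadenylated RNA from 8 livers (4 groups of 2 mice) was measured by sequencing. Per the submitters' processing notes, the tools were TopHat 1.4.1, Cufflinks 2.0.2 and Cuffdiff 2.0.2 with build mm9; per the labels' protocols, libraries came from a TruSeq kit. The authors deposited 1 FPKM value per locus, with any further scaling between libraries not stated in the sources used here. Since FPKM values are no counts, count models were not used. Deposited starts count from 0 (end minus start equalled a RefSeq gene length for 8902 of 20982 loci) and are printed 1 higher.

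log2(FPKM + 1) of 10865 loci (minimum FPKM 1 in 2 or more libraries) was fitted with limma 3.58.1 in R 4.3.3: 4 group means, 4 residual and 2.74 prior degrees of freedom, eBayes with trend, two-sided tests, Benjamini-Hochberg adjustment over all loci in each of 7 comparisons, and a threshold of 0.05. Levels and motifs were computed in Python 3.11.15. The fit was tested on simulated data. Transcript length is the median exonic length of a gene's protein-coding transcripts in GENCODE vM21; the alternative without the length trend removed a loess curve (span 0.5) from each library's deviations for the 98.9% of tested loci with a length.

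Libraries of a group are separate animals (n = 2 per the design text). The members and lists were chosen with earlier results of these data known. Every member was to be accounted for, with values by library for Med23, the tail, the kinase module, each gene that passed any comparison and the smallest p values between genotypes; from the other lists, genes that passed, or the smallest p. One coactivator gene is not reported here by name. Alternatives were pseudocounts of 0.1 and 0.5, no filter or an FPKM of at least 5, median-ratio scaling, quantile normalization, eBayes without the trend or robust, only the libraries compared, summed loci of a symbol, the length trend removed, a replicate block and leaving out each library.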

Additional observations from a re-analysis of the deposited data

Results flagged for a closer look

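Med16, the tail subunit next to Med23, moved in opposite directions with re-feeding in the 2 genotypes, with no overlap between fasted and re-fed libraries in either. Such separation was common: of the 10865 loci tested, 4767 were higher without overlap in control livers and 3669 lower in LMKO livers. Loci with both at once were not counted. For Med16 in control livers the closest values, 5.89 and 5.86 FPKM, nearly met. The log2 fold change was 0.17 in control livers, where both re-fed libraries (6.72 and 5.89 FPKM) lay above both fasted ones (5.86 and 5.17 FPKM), and -0.25 in LMKO livers, where both re-fed libraries (4.82 and 5.51 FPKM) lay below both fasted ones (6.89 and 5.77 FPKM). In limma's interaction term the difference was -0.41 (SE 0.19, unadjusted p = 0.0677, Benjamini-Hochberg adjusted p = 0.566) and did not pass; over the alternatives its adjusted p ran from 0.432 to 0.789.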

How the results depend on the processing

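No member passed between genotypes or in the interaction under any alternative run, and Med23 was lower in LMKO under each of them (log2 fold change over both states -0.47 to -0.29, adjusted p 0.114 to 0.385). Counts of members that passed with re-feeding moved more. Calls over all loci moved too, and their share is given in brackets. In control livers the count was 11 (33.2%), and it was 7 with no filter on low values (17.3%), 4 with the length trend removed (25.3%) and 4 with only the libraries compared (21.2%); leaving out 1 library gave 1 to 9, with 7 without fasted control replicate 1 (25.02%), 1 without fasted control replicate 2 (14.5%) and 2 without re-fed control replicate 2 (16.4%). In LMKO livers the count was 17 (39.5%), and 5 with the length trend removed (29.6%); leaving out 1 library gave 7 to 18, with 8 without fasted LMKO replicate 2 (21.4%), 10 without re-fed LMKO replicate 1 (21.4%) and 7 without re-fed LMKO replicate 2 (20.4%). Over both genotypes the count was 20 (53.1%), and 11 with the length trend removed (45.5%); leaving out 1 library gave 15 to 20. The members' median re-feeding value of 0.19 was 0.33 with an FPKM of at least 5 and -0.073 with the length trend removed. With that trend removed, values changed sign for Med11 (-0.34 in LMKO, -0.29 over both), Med4 (-0.37, -0.32), Med6 (-0.065, -0.077) and Med28 (-0.046, -0.094), and for Med31 over both (-0.12). Of the single-gene values, 4085 kept their side of the threshold, 143 lost and 21 gained a call, and the 9 named above changed sign with a call before or after. Same-numbered libraries did not deviate together (correlations -0.0835 to -0.0083). With 2 libraries per group, these correlations cannot exclude that the numbers pair them. With a replicate block the re-feeding counts were 8 (27.3%), 15 (35.0%) and 19 (49.8%), and Med23 over both states had a limma adjusted p of 0.276. Summed loci of a symbol concern no member.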
